A study of Mus musculus with 8 samples.

Results

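The genes described here are 38 genes of DNA damage signalling and repair, taken by symbol from a table of 32098 mouse genes, and all 38 were found. They were measured by RNA sequencing of 8 whole tumours grown from 4T1, a mouse mammary carcinoma cell line labelled wild type. An immune checkpoint inhibitor alone had been given to 4 tumours (ICI, replicates 1, 2, 3 and 4), and radiation together with the inhibitor to the other 4 (RI, replicates 1, 2, 4 and 5). Both groups therefore received the inhibitor. No untreated tumour and none given radiation alone was analysed here, and the inhibitor, its dose, the radiation dose, the time after treatment and the host mice are not named in the labels. Nor do they state whether a sampled RI tumour was itself irradiated, in a study whose title concerns the abscopal effect, a response outside the field. Separate animals are not stated either, so the p-values here reflect only the spread among these samples, whether between animals or within them. Between tumours of a group that spread had a mean chi-square per gene of 32.82 to 397.5, beyond counting noise. Values are FPKM, fragments scaled to gene length and library size, and differences are RI minus ICI of log2(FPKM + 1), a scale on which differences of low genes come out too small.

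Cells answer a DNA break in steps. Sensor kinases (ATM, ATR and DNA-PKcs, the product of Prkdc) recognise broken or single-stranded DNA and phosphorylate the checkpoint kinases CHK1 and CHK2, and mediators such as MDC1, 53BP1, RNF8 and RNF168 mark the surrounding chromatin. Repair then proceeds by homologous recombination, which copies an intact sister strand in S and G2 phase, or by end joining, which ligates ends at any stage. The Fanconi proteins clear crosslinks, PARP1, PARP2, XRCC1 and LIG3 mend single-strand breaks, and MSH6 recognises mismatched bases. Transcripts of many recombination and Fanconi genes are more abundant in dividing cells, whereas activation of the kinases is by phosphorylation, which RNA sequencing does not measure.

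Depth was read from the steps between low FPKM values, which gave 27013100 to 42622700 fragments a tumour, with 98.6% to 98.8% of low values within 0.05 of a whole number. Every member had at least 89 fragments in every tumour. A pair of tumours stood apart from their groups. ICI 1 had 14750 genes at 1 FPKM or more, where the rest of its group had 13328 to 13454, and the lowest value of the 8 in 26 of the 38 members. RI 4, whose FPKM summed to 717092 over all genes where the rest of its group had 358243 to 367797, was lowest in 5, as was ICI 4. Fragments of mitochondrial genes were 4.37% to 8.14% of ICI and 2.56% to 3.22% of RI libraries, and their part in the results was not tested. Genes were tested where 4 or more tumours had 1 FPKM or more, 13439 in all, and 37 of the 38 members were among them. The exception was Lig4, the ligase of end joining. In bulk tissue a lower share of a cell type and less RNA per cell cannot be told apart.

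Of the 38 repair genes 32 had a positive difference, that is a higher level in the group given radiation, as did 51.1% of all genes tested, and the size of the difference varied widely among them. Of the 37 members tested, 10 rose and 0 fell by limma with Benjamini-Hochberg adjustment over all 13439 genes, and 27 did not pass. That is 27.0% of the members, and 11.1% of all genes tested rose while 6.60% fell. Upper-quartile scaling gave 10 rises and 2 falls among the members and median centring 9 and 2, against 1774 and 1545 and against 1500 and 1623 over all genes (1486 and 887 as deposited). Before adjustment 22 members had p under 0.05, 20 of them higher in RI (20.4% of all genes were) and 2 lower (15.5%). Limma voom on recovered fragments called 14 members higher (12.3% of all genes) and 0 lower (7.04%). Leaving out ICI 4 cut the number of member rises to 3, leaving out RI 1 or RI 2 to 4, and leaving out RI 5 to 5. Over all genes the 1486 rises dropped as well, to 243 (ICI 4 omitted), 558 (RI 1), 408 (RI 2) and 641 (RI 5). When ICI 1 and RI 4 were both omitted 10 members rose and 1 fell, beside 2044 and 1059 of all genes. The 10 members that rose in the limma fit of all tumours were Atm, Mdc1, Brca1, Exo1, Rpa1, Xrcc2, Fanca, Fancd2, Fanci and Parp1. Their adjusted p ran from 0.0115 to 0.0448. In 16 of the 37 the 4 RI values all lay above the 4 ICI values (43.2%, against 16.7% of all genes tested), and in 1, Rnf8, all below (2.70%, against 11.2%). The median difference over the 38 was 0.35 on the log2 scale, against 0.01 over all genes tested, and single members ran from −0.64 for Rpa3 to 1.41 for Rpa1.

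**Figure D1:**
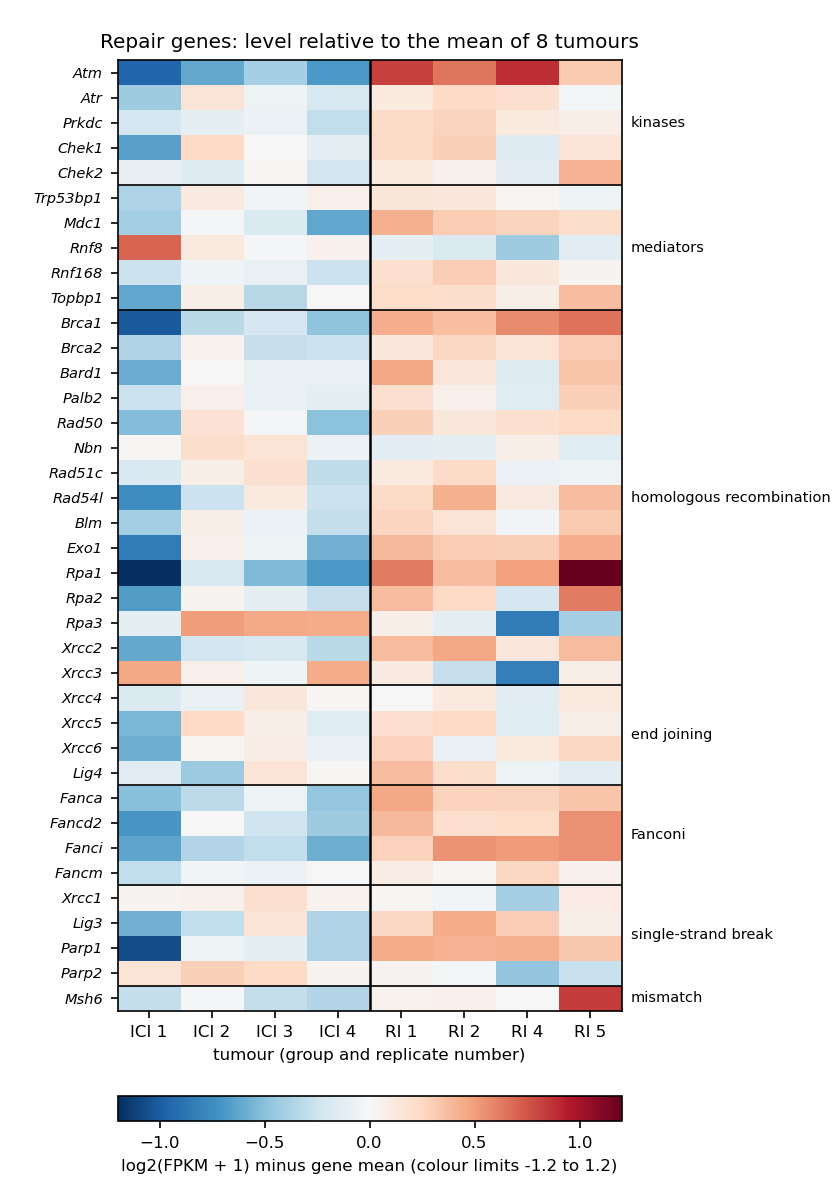
Heat map of the 38 repair genes (rows, grouped by role) in the 8 tumours (columns), as log2(FPKM + 1) minus the gene's mean over the 8 tumours, red above and blue below it. Most rows are blue in the ICI columns and red in the RI columns, with ICI 1 lowest in 26 of the 38, while Rnf8, Rpa3, Xrcc3 and Parp2 are among the 6 with the lower mean in RI.

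Exon length went with the size of the difference in the whole table, and the members' median length of 5716.5 bases exceeded that of all genes tested, 3768 bases. Among 13330 genes with a length, Spearman's rho between length and difference was 0.36, and among the 37 members it was 0.33 (across genes, which are not independent replicates). Of genes with 4000 to 8000 bases of exon 14.6% rose, as did 6 of the 18 members of that length. Beyond 8000 bases 24.8% of genes rose, and 4 of the 12 members. Between 2000 and 4000 bases 6.85% rose, and the 6 members of that length did not pass. When each tumour's trend on length and then on GC content was removed, 6 members rose (16.2%, against 10.7% of all genes) and 2 fell (5.41%, against 9.23%), and the median over the members was 0.17. Those 6 were Atm, Brca1, Rpa1, Xrcc2, Fanca and Fanci, and the 2 were Rnf8 and Parp2, neither of which had passed before.

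**Figure D2:**
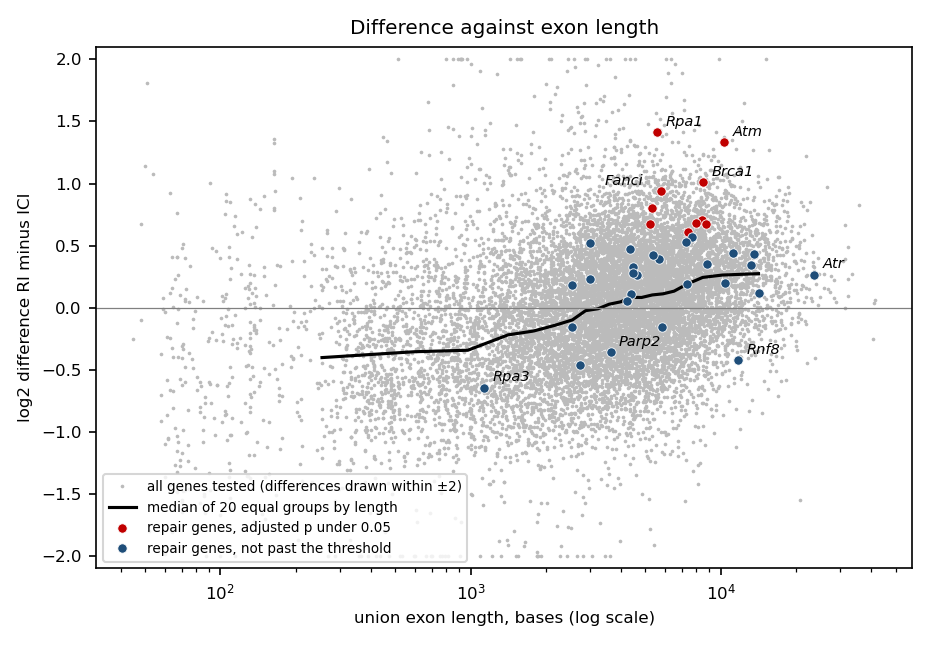
Log2 difference RI minus ICI against union exon length (log axis) for all genes tested (grey, drawn within ±2), the median of 20 equal groups by length (black line) and the repair genes (red where adjusted p was under 0.05, blue otherwise). The line climbs from below 0 for short genes to above 0 for long ones, and Atm, Rpa1, Brca1 and Fanci lie well above it while Rnf8 and Rpa3 lie below.

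Promoters are shown for the 4 risen members with the smallest p, a choice made after their values were seen, because these genes of different repair routes rose together. Of the 38 members 32 were found in the RefSeq promoter table on GRCm38.p6, among them 7 of the 10 that rose. Each sequence is the 250 bases before the annotated start, at chr9:53536672-53536921, minus strand for Atm, chr7:79392088-79392337, plus strand for Fanci, chr11:101551956-101552205, minus strand for Brca1 and chr11:75348384-75348633, minus strand for Rpa1. Capitals mark matches, on either strand, to CCAAT (the NF-Y box, read ATTGG on the other strand), GCGCATGC (NRF1-like) and GGGCGG (SP1-like, read CCGCCC on the other strand). CCGGAAG (ETS-like), TTTGAA and the E2F-like words TTTCGCGC and TTTGGCGC were searched too and matched 0 times in these 4 windows. No match overlapped another.
Atm: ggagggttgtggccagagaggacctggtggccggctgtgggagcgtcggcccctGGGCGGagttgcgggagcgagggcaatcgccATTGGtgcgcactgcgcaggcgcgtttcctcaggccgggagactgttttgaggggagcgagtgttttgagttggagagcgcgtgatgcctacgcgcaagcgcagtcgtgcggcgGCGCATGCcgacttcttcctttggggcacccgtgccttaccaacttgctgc
Fanci: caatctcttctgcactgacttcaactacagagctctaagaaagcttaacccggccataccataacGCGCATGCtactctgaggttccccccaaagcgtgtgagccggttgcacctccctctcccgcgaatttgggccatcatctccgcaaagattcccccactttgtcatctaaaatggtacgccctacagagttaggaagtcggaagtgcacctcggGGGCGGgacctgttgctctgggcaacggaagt
Brca1: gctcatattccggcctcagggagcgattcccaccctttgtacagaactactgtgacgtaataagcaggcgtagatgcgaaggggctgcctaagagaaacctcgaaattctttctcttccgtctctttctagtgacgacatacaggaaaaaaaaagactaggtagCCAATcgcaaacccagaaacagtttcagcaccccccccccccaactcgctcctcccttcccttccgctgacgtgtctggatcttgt
Rpa1: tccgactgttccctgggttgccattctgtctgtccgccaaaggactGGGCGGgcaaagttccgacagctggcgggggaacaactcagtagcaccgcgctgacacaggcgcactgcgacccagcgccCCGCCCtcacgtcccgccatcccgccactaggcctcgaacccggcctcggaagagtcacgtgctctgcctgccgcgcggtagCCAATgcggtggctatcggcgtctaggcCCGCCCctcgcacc

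The capitals fall differently in each of the 4. Atm holds 1 CCAAT, 1 NRF1-like and 1 SP1-like word, Fanci 1 NRF1-like and 1 SP1-like, Brca1 1 CCAAT, and Rpa1 1 CCAAT and 3 SP1-like. Over the full 300 bases of the table, from 250 before to 50 after the start, the E2F-like words, named for factors that drive S phase genes, were in 2 of the 32 members, Rad51c and Topbp1 (6.25%), against 1.90% of 9244 tested genes matched and 0.813% of all 32851 promoters. CCAAT was in 18 of 32 members (56.2%) and 43.1% of tested genes (37.4% of all promoters). The NRF1-like word was in 7 members (21.9%, against 6.10% and 2.71%), the ETS-like word in 10 (31.2%, against 21.0% and 8.86%) and the SP1-like word in 25 (78.1%, against 68.9% and 35.7%). TTTGAA, the word of the cell cycle homology region of mitotic genes, was in 2 (6.25%, against 14.4% and 17.9%), Bard1 and Rnf8. These are letter matches, not sites of binding.

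Among the kinases Atm stood apart as the 1 that rose, where 11.1% of all genes tested did. Atm (chromosome 9, 53439149 to 53536740, GRCm38), the kinase that answers double-strand breaks, had 1.64, 2.34, 2.88 and 2.17 FPKM (ICI 1 to 4) against 8.05, 7.0, 8.46 and 5.37 FPKM (RI 1, 2, 4 and 5). All RI values lay above all ICI values, from RI 5 as the lowest of its group to ICI 3 as the highest of the other. It rose from 2.26 ± 0.508 to 7.22 ± 1.38 FPKM (± SD, 4 tumours each), a ratio of 3.20, or 1.33 in log2 terms (SE 0.17; limma, adjusted p = 0.0115). The call held with each tumour left out in turn, with TPM and with no filter, and after the length and GC correction the difference was 1.05 (adjusted p = 0.00942).

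The other 4 kinase genes did not pass. Prkdc, the catalytic subunit that docks on Ku at broken ends, had 1.34, 1.5, 1.57 and 1.2 FPKM (ICI 1 to 4) against 2.15, 2.24, 1.92 and 1.84 FPKM (RI 1, 2, 4 and 5). Its groups did not overlap, yet the difference of 0.34 did not pass (adjusted p = 0.110), and it was 0.04 after the length and GC correction, its exons summing to 13187 bases. Atr, which senses single-stranded DNA at stalled forks, had 1.04, 2.05, 1.63 and 1.40 FPKM (ICI 1 to 4) against 1.99, 2.24, 2.15 and 1.71 FPKM (RI 1, 2, 4 and 5). Its groups overlapped (log2 difference 0.27, adjusted p = 0.274). The checkpoint kinases downstream overlapped as well, with means of 10.8 ± 2.85 FPKM in ICI and 12.9 ± 1.78 FPKM in RI for Chek1 (adjusted p = 0.371) and 3.81 ± 0.361 FPKM in ICI and 4.68 ± 0.913 FPKM in RI for Chek2 (adjusted p = 0.284; ± SD, 4 tumours each).

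Of the 5 mediators that gather on damaged chromatin, 1 rose (11.1% of all genes tested did). Mdc1 (chromosome 17, 35841515 to 35859670), the scaffold that binds phosphorylated histone H2AX, had 6.67, 9.03, 8.02 and 5.59 FPKM (ICI 1 to 4) against 12.7, 11.6, 11.2 and 10.8 FPKM (RI 1, 2, 4 and 5). No RI tumour was as low as the highest ICI tumour. It rose from 7.33 ± 1.51 to 11.6 ± 0.811 FPKM (± SD, 4 tumours each), or 0.61 in log2 terms (SE 0.15; limma, adjusted p = 0.0287). The call was lost without ICI 4, RI 1, RI 2 or RI 5, and after the length and GC correction (0.37, adjusted p = 0.0811).

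The ubiquitin ligases of this step ran in opposite directions. Rnf168, which spreads the histone mark read by 53BP1, had 5.29, 6.29, 6.07 and 5.31 FPKM (ICI 1 to 4) against 7.61, 8.22, 7.25 and 6.70 FPKM (RI 1, 2, 4 and 5), with every RI tumour above every ICI tumour (log2 difference 0.33, adjusted p = 0.0879). Rnf8, the ligase that acts before it, had 2.66, 1.44, 1.22 and 1.34 FPKM (ICI 1 to 4) against 1.09, 0.996, 0.679 and 1.06 FPKM (RI 1, 2, 4 and 5), and is given in full because it was the only member with all RI values below all ICI values. Its difference of −0.42 did not pass (adjusted p = 0.155), whereas after the length and GC correction it fell by 0.73 (adjusted p = 0.0298). ICI 1 was the highest of its group by a wide gap, and 13.2% of the gene's exon bases are shared with Gm28043 on the same strand. Topbp1, the activator of ATR, had 12.4, 20.6, 15.3 and 19.6 FPKM (ICI 1 to 4) against 23.0, 22.8, 20.6 and 25.6 FPKM (RI 1, 2, 4 and 5), with RI 4 barely above ICI 2 (log2 difference 0.44, adjusted p = 0.104). Trp53bp1, which encodes 53BP1 and favours end joining, had 4.26 ± 0.739 FPKM in ICI and 4.67 ± 0.369 FPKM in RI (± SD, 4 tumours each; adjusted p = 0.576). Its difference was 0.12, and −0.21 after the length and GC correction, and 15% of its exon bases are shared with Tubgcp4 on the opposite strand.

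Homologous recombination held 15 members, of which 4 rose and 11 did not pass (11.1% of all genes tested rose). Brca1 (chromosome 11, 101488764 to 101551955), the tumour suppressor that promotes end resection, had 1.65, 3.26, 3.63 and 2.81 FPKM (ICI 1 to 4) against 6.21, 5.86, 6.90 and 7.39 FPKM (RI 1, 2, 4 and 5). Each RI tumour exceeded each ICI tumour, and ICI 1 was the lowest. It rose from 2.84 ± 0.857 to 6.59 ± 0.689 FPKM (± SD, 4 tumours each), a ratio of 2.32, or 1.01 in log2 terms (SE 0.18; limma, adjusted p = 0.0145). It passed with every single tumour left out, and after the length and GC correction (0.71, adjusted p = 0.0231), but not with TPM or with no filter.

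The partners of Brca1 did not pass. Bard1, its obligate RING partner, had 4.17 ± 0.873 FPKM in ICI and 5.79 ± 1.22 FPKM in RI (± SD, 4 tumours each; adjusted p = 0.157), and RI 4 at 4.26 FPKM lay inside the ICI range. Palb2, the bridge to BRCA2, had 1.47 ± 0.224 FPKM in ICI and 1.83 ± 0.351 FPKM in RI (adjusted p = 0.399). Brca2, a tumour suppressor that acts after resection, had 1.79 ± 0.354 FPKM in ICI and 2.74 ± 0.210 FPKM in RI, with no overlap between groups (log2 difference 0.43, adjusted p = 0.0659), but with the length and GC correction the difference was 0.10. Its exons sum to 13643 bases, among the longest of the members.

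Resection and strand exchange genes gave 2 further rises. Exo1 (chromosome 1, 175880581 to 175913489), the nuclease of long-range resection, rose from 2.27 ± 0.937 to 4.16 ± 0.257 FPKM (± SD, 4 tumours each; log2 difference 0.70, limma adjusted p = 0.0448), with every RI tumour above every ICI tumour. Its call was the weakest of the 10. It was lost without ICI 1, without ICI 4 and without any single RI tumour, and after the length and GC correction (adjusted p = 0.130). Xrcc2 (chromosome 5, 25689812 to 25705825), a gene of strand exchange, had 1.16, 1.84, 1.90 and 1.64 FPKM (ICI 1 to 4) against 3.29, 3.57, 2.62 and 3.31 FPKM (RI 1, 2, 4 and 5). It rose by 0.68 on the log2 scale (SE 0.15; limma, adjusted p = 0.0227), and passed after the length and GC correction (adjusted p = 0.0232) but not without ICI 4, RI 1, RI 2 or RI 5. Rad51c and Xrcc3, of the same step, did not pass. Rad51c had 1.71 and 1.91 FPKM on average in ICI and RI (adjusted p = 0.662) and Xrcc3 15.9 and 11.6 FPKM, a log2 difference of −0.46 (adjusted p = 0.178).

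Of the sensor complex MRN, Rad50 and Nbn are members. Rad50, its ATPase, had 10.7 ± 2.84 FPKM in ICI and 14.4 ± 0.675 FPKM in RI and Nbn, the subunit that recruits ATM, 9.29 ± 0.935 FPKM in ICI and 8.20 ± 0.701 FPKM in RI (± SD, 4 tumours each). The differences were 0.42 and −0.16, of opposite sign, and neither passed (adjusted p = 0.116 and 0.383). Rad54l, a motor protein of strand invasion, had 1.81 and 3.08 FPKM (log2 difference 0.57, adjusted p = 0.0693), and Blm, the helicase that dissolves joint molecules, 2.73 and 3.73 FPKM (0.35, adjusted p = 0.134). In both the groups overlapped. Rad54l shares 15.4% of its exon bases with Lrrc41 on the opposite strand, and strand use in the counting is not stated, so its value is uncertain.

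Replication protein A, the trimer that coats single-stranded DNA, had subunits with differences of opposite sign. Rpa1 (chromosome 11, 75298166 to 75348324), the large subunit, had 7.28, 18.4, 14.4 and 12.8 FPKM (ICI 1 to 4) against 33.2, 27.7, 30.2 and 54.9 FPKM (RI 1, 2, 4 and 5). All RI tumours exceeded all ICI tumours, with RI 5 the highest. It rose from 13.2 ± 4.61 to 36.5 ± 12.5 FPKM (± SD, 4 tumours each), a ratio of 2.76, or 1.41 in log2 terms (SE 0.29; limma, adjusted p = 0.0171), and passed after the length and GC correction (1.24, adjusted p = 0.0199) and in each fit without 1 tumour except that without ICI 4, but not with no filter. Rpa2, the middle subunit that is phosphorylated in damage signalling, had 6.64, 11.4, 10.2 and 8.99 FPKM (ICI 1 to 4) against 14.8, 13.4, 9.52 and 17.6 FPKM (RI 1, 2, 4 and 5). RI 4 lay within the ICI range (log2 difference 0.52, adjusted p = 0.110). Rpa3, the small subunit, had 28.3, 44.1, 42.7 and 42.3 FPKM (ICI 1 to 4) against 32.3, 28.5, 16.8 and 23.1 FPKM (RI 1, 2, 4 and 5), and is given in full as the member with the lowest difference. Its difference was −0.64 (adjusted p = 0.0753), and RI 1 and, barely, RI 2 lay above ICI 1, the outlying tumour of its group. It fell with upper-quartile scaling, median centring, array weights, without ICI 1, and without ICI 1 and RI 4 (adjusted p = 0.0363, 0.0383, 0.0139, 0.0280 and 0.0206). With 1136 bases it is the shortest member, and after the length and GC correction the difference was −0.28 (adjusted p = 0.174).

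Of the 4 end joining genes 3 were tested and 0 passed in limma, and the groups overlapped in all 4 (the smallest unadjusted p was 0.140, so 0 lay under 0.05, and voom on recovered fragments called 0). Over all genes tested 11.1% rose and 6.60% fell, and the RI values lay all above in 16.7% and all below in 11.2%. Xrcc5, which encodes Ku80 of the end-binding Ku ring, had 12.9, 22.9, 20.4 and 17.3 FPKM (ICI 1 to 4) against 22.2, 22.9, 17.3 and 20.3 FPKM (RI 1, 2, 4 and 5). The difference was 0.18 (adjusted p = 0.503), and the lowest tumour was ICI 1. Xrcc6, which encodes Ku70, had 5.61, 9.09, 9.54 and 8.43 FPKM (ICI 1 to 4) against 11, 8.40, 9.76 and 10.8 FPKM (RI 1, 2, 4 and 5) (log2 difference 0.28, adjusted p = 0.274). Xrcc4, the scaffold of the ligase, had 2.01, 2.22, 2.73 and 2.42 FPKM (ICI 1 to 4) against 2.38, 2.68, 2.11 and 2.67 FPKM (RI 1, 2, 4 and 5). These means lay within 1 SD of each other (log2 difference 0.05, SE 0.14, adjusted p = 0.818). Lig4, below the filter, had 0.747, 0.424, 1.15 and 0.935 FPKM (ICI 1 to 4) against 1.48, 1.23, 0.845 and 0.758 FPKM (RI 1, 2, 4 and 5). Its two-sided exact permutation p was 0.314, where the 70 possible regroupings allow no p below 0.0286. Xrcc6 shares 7.69% of its exon bases with Desi1 on the other strand.

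Of the 4 Fanconi genes 3 rose (11.1% of all genes tested did), and in all 4 the RI tumours lay above the ICI tumours (16.7% of all genes tested). Fanci (chromosome 7, 79391929 to 79450264), one arm of the clamp that locks onto crosslinked DNA, had 0.768, 1.14, 1.23 and 0.826 FPKM (ICI 1 to 4) against 2.31, 2.97, 2.92 and 3.02 FPKM (RI 1, 2, 4 and 5). Every RI tumour was above the highest ICI tumour. It rose from 0.991 ± 0.228 to 2.81 ± 0.329 FPKM (± SD, 4 tumours each), a ratio of 2.83, or 0.94 in log2 terms (SE 0.15; limma, adjusted p = 0.0129), and it passed with each tumour left out and after the length and GC correction (adjusted p = 0.0134), but not with TPM. Its clamp partner Fancd2 (chromosome 6, 113531682 to 113597017) had 1.37, 2.83, 2.25 and 1.86 FPKM (ICI 1 to 4) against 4.03, 3.41, 3.45 and 4.61 FPKM (RI 1, 2, 4 and 5). It rose by 0.68 on the log2 scale (SE 0.18; limma, adjusted p = 0.0314), but not without ICI 4, RI 1, RI 2 or RI 5, nor after the length and GC correction (0.39, adjusted p = 0.0897).

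Fanca (chromosome 8, 123268300 to 123318576), of the core complex that attaches ubiquitin to the clamp, had 1.93, 2.33, 2.97 and 2.01 FPKM (ICI 1 to 4) against 4.71, 4.02, 4.01 and 4.23 FPKM (RI 1, 2, 4 and 5). The 4 RI tumours lay close together and above all ICI tumours. It rose by 0.67 on the log2 scale (SE 0.14; limma, adjusted p = 0.0183), also after the length and GC correction (adjusted p = 0.0403), but not without ICI 4, RI 1 or RI 2. Fancm, the translocase that anchors the core complex, had 1.44 ± 0.219 FPKM in ICI and 1.80 ± 0.202 FPKM in RI (± SD, 4 tumours each). Its groups did not overlap, though its difference of 0.20 did not pass (adjusted p = 0.343) and was −0.13 after the length and GC correction. Fanci shares 16.0% of its exon bases with Polg and Fanca 10.5% with Zfp276, both on the opposite strand. Strand use in the counting is not stated, so the values and calls of Fanci and Fanca are uncertain. Polg had 7.60 and 6.67 FPKM in ICI and RI and Zfp276 6.17 and 3.25 FPKM (log2 differences −0.15 and −0.72).

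Of the 4 single-strand break genes Parp1 rose and the other 3 did not pass (11.1% of all genes tested rose). Parp1 (chromosome 1, 180568924 to 180601254), the polymerase of poly(ADP-ribose) that binds nicks, had 10.3, 21.6, 21.0 and 17.4 FPKM (ICI 1 to 4) against 31.2, 30.5, 30.7 and 28.6 FPKM (RI 1, 2, 4 and 5). The RI values were tightly grouped, and the ICI values were spread, with ICI 1 lowest. It rose from 17.6 ± 5.20 to 30.3 ± 1.16 FPKM (± SD, 4 tumours each), or 0.80 in log2 terms (SE 0.22; limma, adjusted p = 0.0348). The call was lost without ICI 4 or any single RI tumour, and after the length and GC correction the difference was 0.67 (adjusted p = 0.0617).

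Parp2, the related enzyme, pointed the other way. It had 15.8, 17.3, 16.7 and 14.4 FPKM (ICI 1 to 4) against 14.4, 13.9, 9.80 and 11.5 FPKM (RI 1, 2, 4 and 5). RI 1 just exceeded ICI 4, and the difference of −0.36 did not pass (adjusted p = 0.115), but after the length and GC correction it fell by 0.47 (adjusted p = 0.020), and it also fell with upper-quartile scaling (adjusted p = 0.0346) and median centring (adjusted p = 0.0324). Lig3, the ligase of this route, had 2.91, 3.75, 5.55 and 3.55 FPKM (ICI 1 to 4) against 5.91, 6.93, 6.16 and 5.17 FPKM (RI 1, 2, 4 and 5), with ICI 3 inside the RI range (log2 difference 0.53, adjusted p = 0.0608). It shares 25.1% of its exon bases with Rffl on the opposite strand, which makes its value uncertain. Its scaffold Xrcc1 had 10.7 ± 0.629 FPKM in ICI and 9.58 ± 1.5 FPKM in RI (± SD, 4 tumours each; log2 difference −0.16, adjusted p = 0.448).

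Msh6, which finds mismatched bases, was among the most abundant members, with 21.6, 26.0, 21.5 and 20.5 FPKM (ICI 1 to 4) against 27.3, 27.7, 26.5 and 48.3 FPKM (RI 1, 2, 4 and 5). RI 5 was far above the other RI tumours, which themselves lay just above the ICI range. The difference of 0.48 did not pass (adjusted p = 0.128).

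**Figure D3:**
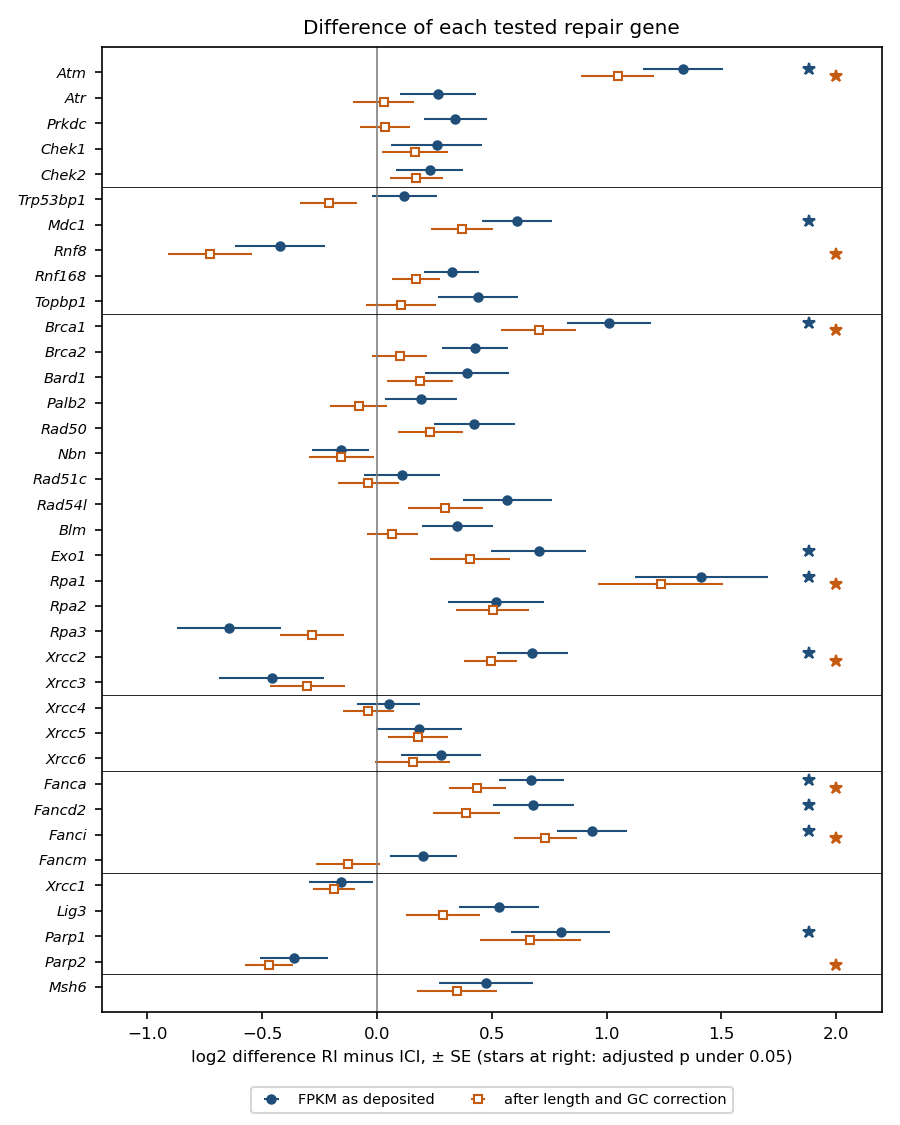
Log2 difference RI minus ICI with its standard error for the 37 repair genes tested, from the deposited FPKM (filled circles) and after removal of each tumour's length and GC trends (open squares). Stars at the right mark adjusted p under 0.05, at 10 genes for the circles and at 8 for the squares, 2 of which (Rnf8 and Parp2) lie below 0.

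Ratios between genes whose products work together do not depend on library size, and 12 such pairs were compared, as log2 ratios of FPKM + 0.1 in both. On that scale the groups did not overlap in 5 pairs, each with a two-sided exact permutation p of 0.0286 (the smallest obtainable) and an adjusted p of 0.0686 over the 12 pairs, so 0 of 12 passed adjustment (5 had an unadjusted p under 0.05). The linear ratio Rpa1/Rpa3 was 0.257, 0.417, 0.337 and 0.301 for ICI 1 to 4 against 1.03, 0.972, 1.80 and 2.38 for RI 1, 2, 4 and 5. The large subunit was thus below the small one in all ICI tumours and near or above it in the RI tumours, a log2 difference of 2.14. From length and GC corrected values, which carry an addition of 1 in place of 0.1, it was 1.52. Here and in the pairs that follow, corrected figures therefore differ from the others in the addition as well as the correction. Rpa2/Rpa3 ran 0.213 to 0.258 in ICI and 0.457 to 0.764 in RI (1.22, corrected 0.79). Brca1/Bard1 ran 0.574 to 0.809 in ICI and 0.880 to 1.62 in RI (0.77, corrected 0.52).

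The remaining pairs of these 5 were Atm/Chek2, a kinase and its substrate, and Rad50/Nbn. Atm/Chek2 ran 0.426 to 0.671 in ICI and 0.904 to 2.25 in RI (1.36, corrected 0.88) and Rad50/Nbn 0.942 to 1.37 in ICI and 1.54 to 1.94 in RI (0.63). From corrected values Rad50/Nbn gave 0.39 (exact permutation p = 0.0571). For the Ku subunits the groups overlapped, with Xrcc5/Xrcc6 at 2.05 to 2.52 in ICI and 1.77 to 2.73 in RI (log2 difference −0.11, exact permutation p = 0.457). Atr/Chek1 ran 0.131 to 0.148 in ICI and 0.130 to 0.207 in RI (0.13, exact permutation p = 0.514). The linear ratio Fancd2/Fanci, with no addition, ran 1.78 to 2.48 in ICI and 1.15 to 1.74 in RI and did not overlap, whereas after the addition of 0.1 the groups did (log2 difference −0.52, exact permutation p = 0.0571). The other 4 pairs, Xrcc4/Lig4, Xrcc1/Lig3, Prkdc/Xrcc5 and Brca2/Palb2, had exact permutation p from 0.0571 to 0.343.

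**Figure D4:**
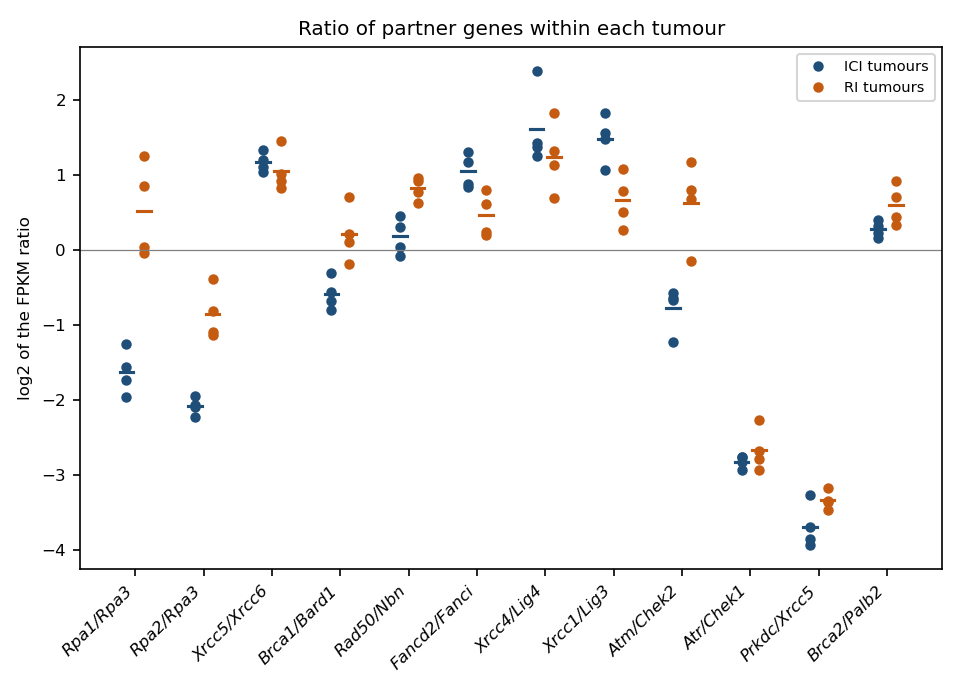
Log2 of the FPKM ratio of 12 pairs of partner genes in each ICI tumour (blue) and RI tumour (orange), with a bar at each group's mean. The 2 groups are apart for Rpa1/Rpa3, Rpa2/Rpa3, Brca1/Bard1, Rad50/Nbn, Atm/Chek2 and, narrowly, Fancd2/Fanci, and overlap for the Ku pair Xrcc5/Xrcc6.

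From the deposited values, repair genes outside the 38 were called about as often as genes in general. Of 104 further genes of checkpoint signalling and repair, 101 were tested, 9 rose, 8 fell and 84 did not pass, with a median difference of 0.06. The shares were 8.91% and 7.92%, beside 11.1% and 6.60% of all genes. After the length and GC correction 7 of the 101 rose and 15 fell, with a median of −0.08, whereas 10.7% of all genes rose and 9.23% fell. In the recombination list Gen1, a resolvase, rose (2.71 to 4.41 FPKM, adjusted p = 0.0337), whereas Rad52 fell (4.24 to 2.34 FPKM, adjusted p = 0.0234). Mre11a, the nuclease of MRN, had 9.41 ± 2.53 FPKM in ICI and 13.6 ± 0.558 FPKM in RI (adjusted p = 0.0750). In the Fanconi list Brip1, a helicase that binds BRCA1 (1.96 to 4.20 FPKM, adjusted p = 0.0154), and Usp1, which removes ubiquitin from the clamp (18.8 to 34.4 FPKM, adjusted p = 0.0385), rose, and 11 did not pass. In the end joining list of 8, the 2 that passed both fell, Nhej1 (5.45 to 2.76 FPKM, adjusted p = 0.0234) and Polm (33.6 to 20.6 FPKM, adjusted p = 0.0452).

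The damage checkpoint list had 1 rise and 2 falls among 18, where 11.1% of all genes tested rose and 6.60% fell. Hus1 of the 9-1-1 clamp rose (2.66 to 4.62 FPKM, adjusted p = 0.0315), and its clamp partner Rad9a fell (16.7 to 11.2 FPKM, adjusted p = 0.0367). Base excision had 3 rises among 18 tested, and 15 did not pass. They were the glycosylase Tdg (1.48 to 3.75 FPKM, adjusted p = 0.0169), Parg, which degrades poly(ADP-ribose) (4.42 to 7.30 FPKM, adjusted p = 0.0254), and the endonuclease Apex1 (10.4 to 18.5 FPKM, adjusted p = 0.0498). Nucleotide excision had 1 rise and 2 falls among 19. Ddb1, a ubiquitin ligase adaptor, rose (56.7 to 107 FPKM, adjusted p = 0.0207), while Xpa, which verifies the lesion, fell (12.3 to 5.39 FPKM, adjusted p = 0.0138) and so did Gtf2h5 (12 to 7.99 FPKM, adjusted p = 0.0414). Among these further repair genes Xpa and Tdg held their calls without ICI 4, and the others named did not. Rad9a, Apex1 and Gtf2h5 passed in 1 of the 8 fits that left out a tumour, Polm in 2, Usp1 in 3, and Hus1, Gen1, Nhej1 and Parg in 4. Gen1 and Nhej1 did not pass after the length and GC correction (adjusted p = 0.0577 and 0.121).

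Some genes of dividing cells also had higher levels in RI. Of 19 DNA replication genes 8 rose and 11 did not pass (median difference 0.55), where 11.1% of all genes tested rose. Those that rose included Mcm6 (33.0 to 70.4 FPKM, adjusted p = 0.0232), Mcm4 (21.9 to 40.9 FPKM, adjusted p = 0.0219) and Cdc6 (6.16 to 10.2 FPKM, adjusted p = 0.0284). Their mean log2(FPKM + 1) ran 3.36 to 4.19 in ICI and 4.29 to 4.51 in RI. Of 14 mitotic genes 4 rose and 10 did not pass (median 0.66), with means of 3.74 to 4.56 in ICI and 4.72 to 5.07 in RI, and Bub1b, Ccna2 and Kif11 had the smallest p. None of these 12 calls held without ICI 4, and after the length and GC correction 5 and 4 of them passed, where 10.7% of all genes rose. Pcna was 92.7 ± 23.8 FPKM in ICI and 84.7 ± 13.4 FPKM in RI (adjusted p = 0.766), Mki67 45.8 ± 9.93 FPKM in ICI and 44.5 ± 6.34 FPKM in RI (adjusted p = 0.944) and Top2a 60.7 ± 26.9 FPKM in ICI and 112 ± 2.66 FPKM in RI (adjusted p = 0.0516). ICI 1 was the lowest tumour of both lists, as it was of most repair genes. The part of cell division in the repair gene differences was not tested.

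Some cell type markers also differed between the groups, where 11.1% of all genes tested rose and 6.60% fell. The part of cell types in the repair gene differences was not tested. The keratins of the tumour cells, Krt8 (698 and 510.4 FPKM) and Krt18 (621 and 408 FPKM), were abundant in both groups and did not pass, while Epcam was low (2.08 and 0.345 FPKM) and listed at 0 in RI 4. Summed over 8 epithelial markers, of which 4 were tested and 1 (Cldn3) fell, the level was 979.6 to 2009 FPKM in ICI and 768 to 1398 FPKM in RI. Neutrophil markers (6, of which 5 were tested and 2 fell) summed to 202 to 19606 FPKM in ICI and 17.1 to 75.0 FPKM in RI, with the top value in ICI 1 and Ly6g listed at 0 in RI 2, RI 4 and RI 5. Fibroblast markers (4 of 7 rose) summed to 47.9 to 67.0 FPKM in ICI and 103 to 509.6 FPKM in RI, macrophage markers (2 of 6 rose) to 286 to 359.7 FPKM in ICI and 279 to 703 FPKM in RI, and muscle markers (6, of which 5 were tested and 2 rose) to 1.36 to 199.9 FPKM in ICI and 90.7 to 504 FPKM in RI. Of 5 leukocyte markers 1 rose, summing to 97.2 to 595 FPKM in ICI and 100.4 to 168 FPKM in RI. Of 7 T and NK cell markers 2 were tested and 1 fell, summing to 6.89 to 19.9 FPKM in ICI and 4.42 to 9.89 FPKM in RI. Of 5 endothelial markers 4 were tested and 0 passed in limma (1, Emcn, at an unadjusted p under 0.05, 0 by voom), summing to 15.2 to 98.7 FPKM in ICI and 16.1 to 43.9 FPKM in RI.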

How the data were processed

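RNA sequencing libraries of 8 whole 4T1 tumours were grouped by their titles, 4 ICI and 4 RI, although the design text speaks of 3 replicates a group. The deposited values were FPKM per gene in 1 table, 1 column a tumour. Alignment with HISAT2 to GRCm38 (mm10) is per the submitters' processing notes, and the counting program, its strand setting, the annotation and any filter were not given in the sources used here. Exon lengths and coordinates came from GENCODE M21 on GRCm38, matched by Ensembl identifier.

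Genes at or above 1 FPKM in 4 or more tumours were fitted with limma 3.58.1 (R 4.3.3) on log2(FPKM + 1), with trended and robust variance, Benjamini-Hochberg adjustment over all 13439 and a threshold of 0.05. The script was tested on simulated data. The length and GC correction subtracted from each tumour a lowess curve (span 0.3) on exon length, then GC content. Alternatives changed the filter, pseudocount, scaling, weights or tumours. All 8 values are given for up to 3 members with the smallest p in each role group, and up to 3 genes of each other list are named. The 38 members and the lists were chosen with earlier results of these data known. Some genes of these lists are not reported here.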

Additional observations from a re-analysis of the deposited data

Results flagged for a closer look

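In 6 of 76 sets of 4 tumours (38 genes in 2 groups) 1 tumour lay so far from the other 3 that its gap passed Dixon's critical share of the group's range, which chance passes in about 1 set in 20. Rnf8 in ICI 1 was 2.66 FPKM, where the rest of ICI had 1.22 to 1.44. Rpa3 in ICI 1 was 28.3 FPKM, against 42.3 to 44.1. Xrcc1 in ICI 3 was 11.6 FPKM, against 10.3 to 10.5. Nbn in RI 4 was 9.25 FPKM, where the rest of RI had 7.77 to 7.98. Fanci in RI 1 was 2.31 FPKM, against 2.92 to 3.02, and still above every ICI value. Msh6 in RI 5 was 48.3 FPKM, against 26.5 to 27.7.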

How the results depend on the processing

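Atm, Brca1 and Fanci passed with every tumour left out in turn, and array weights, upper-quartile scaling and voom on recovered fragments kept all 10 calls. The number of members that rose (10) was 2 with TPM (Atm, Rpa1), 2 with no filter (Atm, Fanci) and 6 with the length and GC correction. With a mean of at least 5 FPKM it was 3 of the 16 members tested (Mdc1, Rpa1, Parp1), where 1171 of 8310 genes rose. With 1 tumour left out it was 3 to 12, lowest without ICI 4. The number that fell (0) was 1 with array weights and without ICI 1 and RI 4, and 2 with upper-quartile scaling, median centring or the length and GC correction, and 0 to 1 with 1 tumour left out. The members' median (0.35) was 0.51 with TPM, where that of all genes was 0.11, 0.19 with a pseudocount of 5, 0.17 with the length and GC correction, and 0.29 to 0.43 with 1 tumour left out. Genes called in all (2373) numbered 280 with TPM, 241 with no filter, 4319 with array weights, and 336 to 2693 with 1 tumour left out, with 336 when ICI 4 was omitted, 672 for RI 2, 999 for RI 1 and 1017 for RI 5. Same-numbered tumours did not deviate together (r = −0.09, −0.12 and −0.12). Whether the numbers pair the tumours is not known, and 3 shared numbers are too few to settle it. With the replicate number as a block, over the 3 shared numbers, 22 genes and 0 members were called, and with block and length and GC correction 2 genes, 0 members and a median of 0.17. Results that changed sign did not pass in the settings named here: with the length and GC correction Trp53bp1 (−0.21), Palb2 (−0.0791), Rad51c (−0.0386), Xrcc4 (−0.0378) and Fancm (−0.13), with the block as well Trp53bp1 (−0.19), Palb2 (−0.15), Topbp1 (−0.0126), Xrcc4 (−0.0261) and Fancm (−0.13). From corrected values, an alternative chosen after seeing the data, the log2 ratio differences of Atr/Chek1 (−0.14), Prkdc/Xrcc5 (−0.14) and Xrcc5/Xrcc6 (0.0250) changed sign. Those values also carry an addition of 1 in place of 0.1, and with that addition alone Atr/Chek1 was 0.00738. With 1 tumour left out Atr/Chek1 ran from −0.00399 to 0.212, lowest without RI 4. The cause of these changes was not tested. Members had 89 fragments or more in every tumour, and 4 tumours a group limit the exact test to p = 0.0286.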

Other observations

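Most genes listed as targets of p53 did not pass. Whether p53 was functional in these tumours was not tested, so their levels are not a measure of its activity. Trp53, which encodes p53, had 25.8, 25.7, 23.7 and 28.3 FPKM (ICI 1 to 4) against 16.7, 15.4, 10.6 and 20.1 FPKM (RI 1, 2, 4 and 5), and fell from 25.9 ± 1.90 to 15.7 ± 3.90 FPKM (SD, n = 4 each; limma adjusted p = 0.0309). Of 15 p53 target genes 14 were tested, 3 rose, 1 fell and 10 did not pass, where 11.1% of all genes tested rose and 6.60% fell. Ccng1, a cyclin-like regulator (12.4 to 20.5 FPKM, adjusted p = 0.0171), Zmat3, an RNA-binding protein (1.36 to 2.75 FPKM, adjusted p = 0.0234), and Aen, a nuclease (4.17 to 6.56 FPKM, adjusted p = 0.0330), rose. Bax, which permeabilises mitochondria in apoptosis, fell (51.9 to 28.2 FPKM, adjusted p = 0.0162). Without ICI 4 none of these 5 calls held, and Zmat3 did not pass after the length and GC correction. Cdkn1a, the cell cycle inhibitor p21, had 25.9, 11.2, 13.9 and 9.39 FPKM (ICI 1 to 4) against 19.0, 21.8, 11.9 and 24.0 FPKM (RI 1, 2, 4 and 5) (adjusted p = 0.404), and Mdm2, the ubiquitin ligase of p53, 21.9 ± 5.78 FPKM in ICI and 18.2 ± 2.86 FPKM in RI (adjusted p = 0.407). ICI 1 had the highest mean over these targets, 3.68 on the log2(FPKM + 1) scale, against 2.57 to 3.29 in the other 7 tumours.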
